A study of Homo sapiens with 4 samples.

Results

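The olfactory receptor genes of human chromosomes 1 and 11 were examined for H4K20me3, histone H4 carrying 3 methyl groups on lysine 20, which is found mainly in heterochromatin. They were chosen by name alone, as every protein-coding gene of GENCODE release 44, mapped to GRCh37 (hg19), that lies on either chromosome and whose symbol is OR followed by digits, letters and digits. This gave 234 genes of 20163 protein-coding genes, 63 of them on chromosome 1 and 171 on chromosome 11. The cells were IMR90, an established line of diploid fibroblasts from human lung that divides a limited number of times. Cells at population doubling 32 were proliferating (PRO), and cells at population doubling 86 had been passaged until they stopped dividing, a state called replicative senescence (RS). Neither group carried a transgene or a drug treatment by the labels, and both were profiled by ChIP-seq with the same 2 antibodies, which gave 4 samples in 2 groups.

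The measurements are positions. The PRO and the RS list each hold the peaks found with both antibodies in that group, and the third list, DiffBind, holds regions whose read counts differed between the groups. With 1 list a group there is no spread between replicates, so no test was made between PRO and RS, and all values below are descriptions of these 3 lists. The DiffBind list does not give the direction of a difference, and none of the lists gives read depth. A gene was counted as overlapped if its body, from the start to the end of the gene, shared at least 1 base with a region. Over the whole genome the PRO list holds 2830 peaks that cover 0.120% of sequenced bases, the RS list 35534 peaks that cover 1.33%, and the DiffBind list 18711 regions that cover 1.21%.

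Olfactory receptors are G protein-coupled receptors with which sensory neurons of the nose bind odorants. A neuron expresses a single allele of a single receptor gene, and in other tissues, the lung included, the genes are normally silent. Their protein is encoded in a single exon, and the family grew by tandem duplication, which left clusters of related genes mixed with pseudogenes. Class I receptors (families 51, 52 and 56 here) resemble those of fish and lie together at 11p15.4, and class II receptors make up the other families. The median gene body was 1163 bp, against 27219 bp over all coding genes, and 229 of the 234 genes had their coding sequence in 1 piece. A count of overlapped bodies therefore weighs these short genes differently from other genes, and coverage per base is given beside each count.

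Stretches of the coding exons that carried the result are shown first. The 4 below come from receptor genes without repeated sequence, in which an RS peak covered all or part of the coding exon, and capitals mark the bases inside that peak. They are written 5' to 3' on the coding strand in GRCh37: OR6Q1 at chr11:57798425-57798604 on the plus strand, OR5B12 at chr11:58207312-58207491, OR6N1 at chr1:158736293-158736472 and OR51B4 at chr11:5322511-5322690, the last 3 on the minus strand. The OR6Q1 and OR6N1 stretches begin with the start codon.
OR6Q1: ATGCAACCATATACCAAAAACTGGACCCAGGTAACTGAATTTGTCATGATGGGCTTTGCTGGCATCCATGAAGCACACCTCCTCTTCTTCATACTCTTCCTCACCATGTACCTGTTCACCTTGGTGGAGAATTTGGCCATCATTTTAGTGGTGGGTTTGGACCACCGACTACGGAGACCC
OR5B12: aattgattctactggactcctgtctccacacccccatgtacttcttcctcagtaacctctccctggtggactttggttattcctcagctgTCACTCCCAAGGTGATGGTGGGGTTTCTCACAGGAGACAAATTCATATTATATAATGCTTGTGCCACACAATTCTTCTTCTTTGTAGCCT
OR6N1: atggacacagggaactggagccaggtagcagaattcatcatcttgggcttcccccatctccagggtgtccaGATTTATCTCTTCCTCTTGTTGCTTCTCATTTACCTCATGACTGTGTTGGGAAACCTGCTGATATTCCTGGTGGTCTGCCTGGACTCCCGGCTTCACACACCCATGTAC
OR51B4: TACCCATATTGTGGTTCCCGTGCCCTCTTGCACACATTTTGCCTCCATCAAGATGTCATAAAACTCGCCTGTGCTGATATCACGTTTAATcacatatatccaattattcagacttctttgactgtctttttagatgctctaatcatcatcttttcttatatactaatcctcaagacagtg

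The next 4 are matched stretches of near-identical genes of the OR2T subfamily at 1q44 whose listed RS peaks differed. Reads from such copies can be placed at either of them, so the position of a peak within a pair is uncertain. Capitals mark the bases at which the members of a pair differ. OR2T5 (chr1:248651890-248652039, plus strand) carried no RS peak over this stretch and OR2T29 (chr1:248722643-248722792, minus strand) lay inside an RS peak. OR2T3 (chr1:248637218-248637367, plus strand) and OR2T34 (chr1:248737343-248737492, minus strand) are the other pair. The OR2T3 stretch lay inside an RS peak, and the OR2T34 stretch lay outside the RS peak that covers another part of its coding exon.
OR2T5: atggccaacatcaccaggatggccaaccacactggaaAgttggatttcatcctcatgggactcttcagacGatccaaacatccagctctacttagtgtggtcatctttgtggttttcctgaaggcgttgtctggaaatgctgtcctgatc
OR2T29: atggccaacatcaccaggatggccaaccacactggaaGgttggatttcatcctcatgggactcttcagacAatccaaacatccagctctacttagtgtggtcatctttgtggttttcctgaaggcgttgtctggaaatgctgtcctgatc
OR2T3: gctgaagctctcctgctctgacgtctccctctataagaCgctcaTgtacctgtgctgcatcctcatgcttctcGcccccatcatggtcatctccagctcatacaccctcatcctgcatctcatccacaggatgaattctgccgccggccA
OR2T34: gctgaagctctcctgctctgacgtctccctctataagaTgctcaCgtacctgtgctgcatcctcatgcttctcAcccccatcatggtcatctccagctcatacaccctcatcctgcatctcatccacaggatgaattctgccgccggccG

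No receptor gene was overlapped by a PRO peak, 17 (7.26%) were overlapped by an RS peak and 5 (2.14%) by a DiffBind region. Over all coding genes, the same lists overlapped 3.97% with PRO, 21.0% with RS and 18.3% with DiffBind regions. Counted in coding exons alone, 0 receptor genes met a PRO peak, 14 (5.98%) an RS peak and 4 (1.71%) a DiffBind region. The shares of all coding genes by coding exons were 1.25%, 6.38% and 6.93%. The 3175 other coding genes of chromosomes 1 and 11 stood at 16.5% by bodies and 3.84% by coding exons for RS peaks. By bodies the receptor share was thus below both sets of coding genes. By coding exons it lay above that of the same chromosomes and close to that of the genome. Per base, RS peaks covered 1.20% of receptor bodies. Bodies of all coding genes stood at 0.978%, and those of the other coding genes of chromosomes 1 and 11 at 0.720%. The 218 receptor genes outside the subfamily OR2T stood lower. Of these, 7 (3.21%) had an RS peak in the coding exon, below both sets, and 0.769% of their body bases were covered. The chromosomes differed: on chromosome 1, 10 of 63 receptor genes (15.9%) were overlapped by RS peaks, 9 (14.3%) in the coding exon, and on chromosome 11, 7 of 171 (4.09%), 5 (2.92%) in the coding exon. Of the 10 genes of chromosome 1, 8 were of the subfamily OR2T. All 5 genes with a DiffBind region were among the 17 with an RS peak, and 12 of the 17 had none. A PRO peak lay within 2000 bp of 3 receptor genes, OR2T1 at 279 bp, OR9G1 at 1440 bp and OR6P1 at 1594 bp, and the peak near OR6P1 was 1 base long.

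Within the genes, the RS peaks lay on the coding exons more than on the rest of the body. RS peaks covered 4.19% of the 222.0 kb of coding exon and 0.617% of the remaining 1146 kb of gene body. The spaces between receptor genes, 9722 kb in all, were covered to 1.20%, and whole bodies also came to 1.20%, close to the 1.33% of the genome. Chromosome 1 as a whole was covered to 1.19% and chromosome 11 to 1.01%. The coding exons of all coding genes, which include the zinc finger genes with 32.2% of their coding bases in RS peaks, were covered to 2.56%, and those of the other coding genes of chromosomes 1 and 11 to 1.33%. Receptor coding exons were covered to 10.1% on chromosome 1 and to 2.00% on chromosome 11. Those of the 218 receptor genes outside OR2T stood at 2.22%, below the 2.56% of all coding genes and above the 1.33% of the same chromosomes. For receptor coding exons, spaces and the rest of the bodies, DiffBind regions gave the same order as RS peaks, at 1.52%, 1.06% and 0.0618%. Within the spaces the order differed from that of RS peaks, which is given below. There, DiffBind regions covered 0.564% of receptor pseudogenes, 0.827% of other coding genes and 1.16% of the remaining space. Against other genes DiffBind regions did not give the order of RS peaks either. DiffBind regions covered 3.09% of the coding exons of all coding genes and 2.77% of those of the other coding genes of chromosomes 1 and 11. PRO peaks covered no base of a receptor gene and 0.0906% of the spaces, in which 8.81 kb lay in PRO peaks and 116.2 kb in RS peaks.

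**Figure D1:**
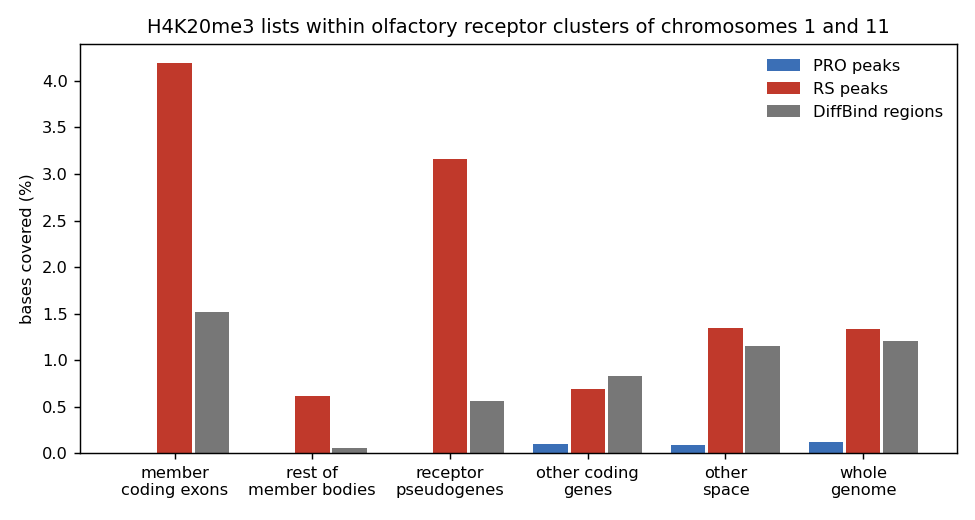
Bars give the percent of bases covered by PRO peaks, RS peaks and DiffBind regions in the parts of the receptor clusters and in the whole genome. Receptor coding exons have the tallest RS bar, at 4.19%, the rest of their bodies the lowest, at 0.617%, and the PRO bars are at 0 in both.

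Base composition followed the order of RS coverage in receptor coding exons, spaces and the rest of the bodies, but not within the spaces. There, receptor pseudogenes had 44.6% GC and 3.17% RS coverage, other coding genes 40.5% and 0.691%, and the remaining space 38.0% and 1.35%. GC content was 46.8% in receptor coding exons, 37.5% in the rest of the bodies and 38.8% in the spaces, and RS peaks within the clusters had a median GC content of 50.7%, against 49.4% for the whole RS list. Among the receptor genes, the median coding GC content was 51.1% in the 14 with an RS peak in the coding exon and 46.2% in the 220 without. The part of base composition in the peaks was not tested.

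Along the genes, RS coverage of the 234 genes stood at 0.374% in the 500 bp before the first coding base, at 4.64% in the first 500 bp of coding sequence and at 3.46% in the next 500 bp. It fell to 1.63% from 1000 to 1500 bp after the first coding base, where most coding exons have ended. The 165 olfactory receptor genes of other chromosomes had the same shape at a higher level, at 2.00% in the 500 bp before, 8.77% in the first and 6.36% in the second 500 bp. DiffBind coverage in the first 500 bp was 1.52% for the genes of chromosomes 1 and 11 and 7.08% for those elsewhere. Outside the coding exon, the highest RS value of the 234 genes within 10 kb was 3.15%, at 8000 to 8500 bp after the first coding base.

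**Figure D2:**
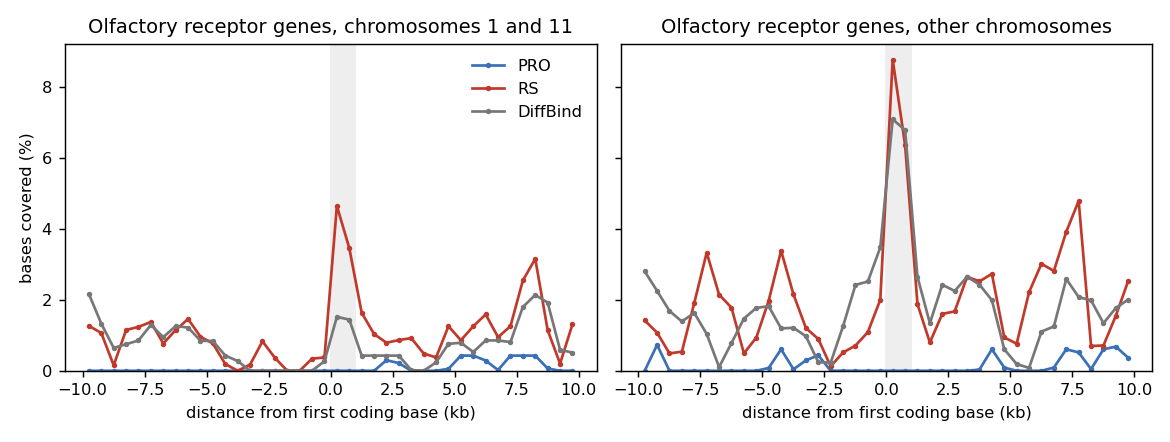
Lines give the percent of bases covered in steps of 500 bp by distance in kb from the first coding base, for the 234 receptor genes of chromosomes 1 and 11 and for the 165 of other chromosomes, and shading marks the first 1 kb. In both panels the RS line peaks in the shaded first 1 kb, at 4.64% and 8.77%, and the PRO line stays at 0 within it.

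Elsewhere in the genome, 26 of the 165 receptor genes (15.8%) were overlapped by an RS peak, 22 (13.3%) in the coding exon, with 8.79% of coding bases covered. PRO peaks overlapped 4 of them, 1 in the coding exons, with 0.383% of coding bases covered, and DiffBind regions 17 (10.3%). Each of these values was above that of the 234 genes pooled. The RS values lay slightly below those of chromosome 1 alone (15.9%, 14.3% and 10.1%) and above those of chromosome 11 (4.09%, 2.92% and 2.00%). These differences were not tested, since genes of 1 cluster share their surroundings and are not replicates. The median distance from a gene body to the nearest RS peak was 27.6 kb for the 234 genes, 16.0 kb for those elsewhere and 39.2 kb over all coding genes. Within 5 kb of an RS peak lay 39 of the 234 genes, and within 50 kb 150. The shares of all coding genes within these distances were not computed, so these counts cannot be called high or low.

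The 234 genes fell into 11 clusters when neighbours up to 1 Mb apart were joined. An RS peak lay in 9 of them and an overlapped gene in 4, and the 7 clusters without one held 86 genes. Of the 17 overlapped genes, 14 lay at 1q44 or 11q12.1. The clusters differed in coding coverage more than in their spaces: coding exons were covered to 13.3% at 1q44 and 13.6% at 11q12.1, to 3.70% at 1q23.1-q23.2, to 0.898% at 11p15.4 and to 0 in the other 7. Spaces were covered to between 0 and 3.53%, and the highest value was that of 11p11.2, a cluster of 7 genes with none overlapped.

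**Figure D3:**
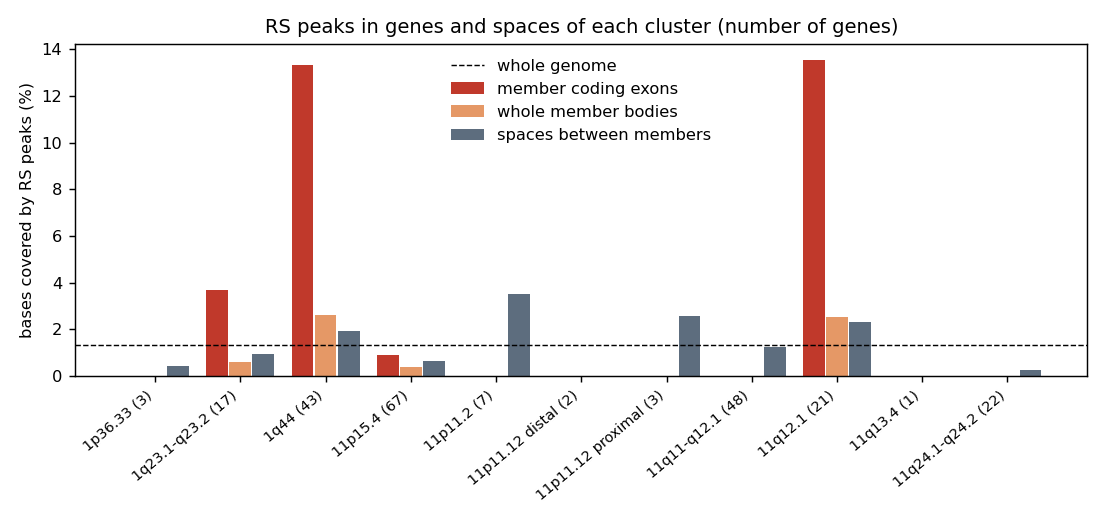
Bars give the percent of bases in RS peaks for coding exons, whole bodies and spaces of each cluster, with the number of genes in brackets and the whole genome as a dashed line. Coding exons stand above spaces at 1q23.1-q23.2, 1q44, 11p15.4 and 11q12.1, and elsewhere no receptor body has an RS base. The cluster 11q13.4 is a single gene and has no space.

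**Figure D4:**
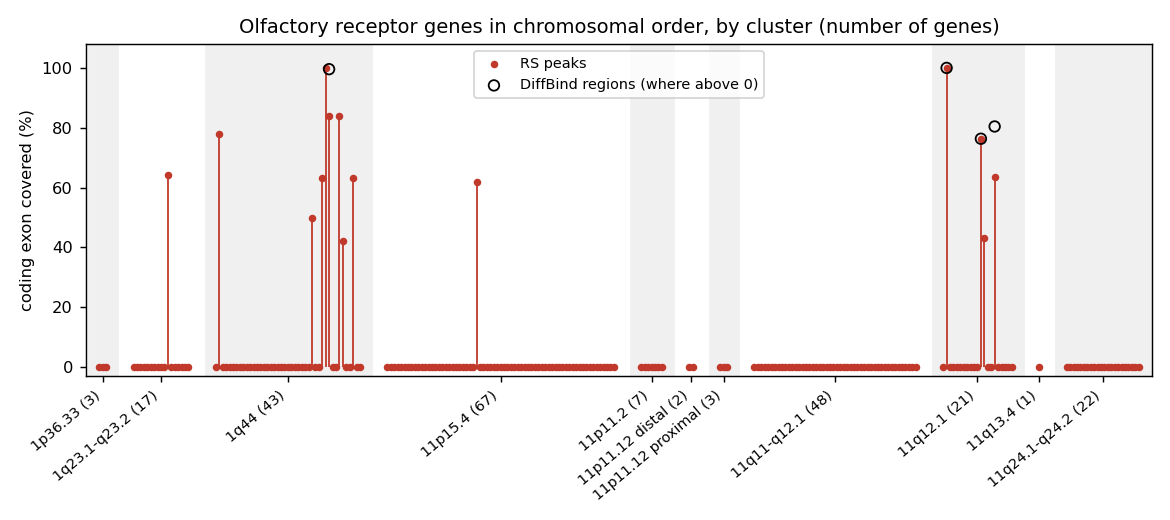
Points give the percent of each receptor gene's coding exon in RS peaks, in chromosomal order and grouped by cluster, and open circles the percent in DiffBind regions where it is above 0. The 14 genes above 0 lie between 42.0% and 100%, 7 of them OR2T genes in the right-hand part of 1q44.

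At 1q44 (chr1:247612420-248845629), 9 of 43 genes were overlapped by RS peaks, 8 of them in the coding exon. The 29 RS peaks of this cluster, 23.5 per Mb against 12.4 per Mb in the genome, covered 2.63% of the bodies and 1.92% of the spaces. The subfamily OR2T accounted for 8 of the 9. Among the 27 other genes, of subfamilies such as OR2L, OR2M, OR2G and OR14A, OR2C3 was overlapped, with 77.9% of its coding exon in an RS peak of 1201 bp, and the other 26 had no RS base. A single PRO peak lay in the cluster, 279 bp from OR2T1, and it overlapped an RS peak. The 13 DiffBind regions there touched 1 receptor gene, OR2T3.

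OR2T was the subfamily with the most overlapped genes. Of its 16 genes, 7 had RS peaks in the coding exon and an eighth, OR2T1, had 121 RS bases in its body and none in its coding exon. OR2T2 had its whole coding exon in an RS peak of 1801 bp. OR2T3 had 84.0% of the coding exon in an RS peak and 99.6% in a DiffBind region. OR2T29 stood at 83.8%, OR2T7 and OR2T35 both at 63.1%, OR2T4 at 49.7% and OR2T34 at 42.0%. These 8 genes all lay within 1 Mb of the end of chromosome 1. Together the OR2T coding exons were 30.7% covered, against 2.22% for the coding exons of the 218 genes outside OR2T.

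The OR2T genes include near-identical copies, and reads from such copies can be placed at any of them. The share of windows of 75 bases in the coding exon that occur, identically and on either strand, elsewhere in the genome was 91.8% in OR2T29, 74.2% in OR2T2, 74.4% in OR2T35, 61.9% in both OR2T3 and OR2T34, 46.9% in OR2T7 and 6.60% in OR2T4. The listed peaks differed between near-identical copies. OR2T5 and OR2T29 share 99.8% of their coding sequence, and RS peaks covered 0 of the first and 83.8% of the second. OR2T7 and OR2T27 share 98.6%, and only OR2T7 was covered, at 63.1%. The pair OR2T2 and OR2T35, 99.4% identical, were covered to 100% and 63.1%, and OR2T3 and OR2T34, also 99.4% identical, to 84.0% and 42.0%. OR2T33 and OR2T12 share 97.3% and had no RS base. How reads were shared between copies cannot be seen in the lists, so the position of a peak among these copies is uncertain, and its part in the result was not tested.

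Outside OR2T, the 7 genes with an RS peak in the coding exon (OR2C3, OR6N1, OR51B4, OR6Q1, OR5B12, OR5B21 and OR5A1) had no repeated window in it. Their closest relatives among the genes examined were 61.2% to 77.8% identical, with a median of 68.4%, against a median of 70.1% for the 211 other genes outside OR2T without an RS peak in the coding exon. When every region with a repeated window was left out, these 7 genes remained, RS peaks covered 2.07% of receptor coding exons and 0.580% of the spaces, and the ratio of the former to the latter was 3.57, close to the 3.50 of all regions.

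At 11q12.1 (chr11:57791353-59481318), 5 of 21 genes were overlapped by RS peaks and 4 of them also by DiffBind regions. Here lay 44 RS peaks, 26.0 per Mb, and 22 DiffBind regions, and no PRO peak. OR6Q1 was the gene with the fullest coverage, since its 954 bp body lay whole inside an RS peak and a DiffBind region that shared the same 1001 bp (chr11:57798401-57799401). OR5B12 had 76.3% of its coding exon in an RS peak of 2201 bp and the same 76.3% in a DiffBind region of 2801 bp. Its neighbour OR5B21 had 43.3% in an RS peak of 401 bp and no DiffBind base, and the other OR5B genes, OR5B17, OR5B3 and OR5B2, had no RS base in their bodies. OR5A1, a receptor for the violet odorant beta-ionone, had 63.6% of its coding exon in RS peaks and 80.4% in DiffBind regions. OR9Q1 has a body of 157736 bp that spans OR6Q1, and its 4205 RS bases in 5 peaks and 1402 DiffBind bases include the OR6Q1 peak. Its own coding exon had none.

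**Figure D5:**
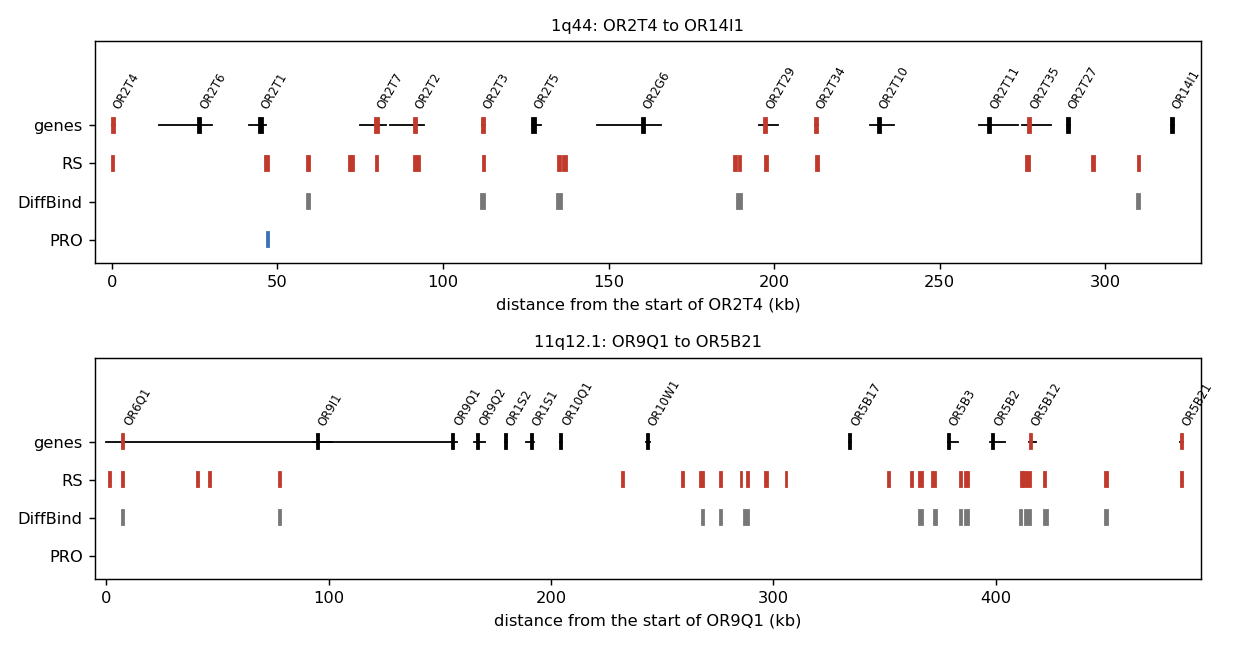
Maps of 1q44 from OR2T4 to OR14I1 and of 11q12.1 from OR9Q1 to OR5B21, in kb from the start of the first gene, with gene bodies as lines, coding exons as boxes (red where an RS peak overlaps) and the regions of each list as boxes below. Boxes narrower than 1 kb are drawn slightly widened so that they can be seen. At 1q44 RS boxes fall on 7 OR2T coding exons, and others fall in the body of OR2T1 and in the spaces. At 11q12.1 RS boxes fall on OR6Q1, OR5B12 and OR5B21 and on other parts of the OR9Q1 body. Others there fall in the spaces, among them those around OR5B17, OR5B3 and OR5B2.

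At 11p15.4 (chr11:4388493-7963255), the largest cluster with 67 genes and all class I receptors, 2 genes were overlapped. OR51B4 had 61.9% of its coding exon in an RS peak of 601 bp, and no repeated window. OR51B5, annotated with a body of 202209 bp, had 1202 RS bases in 2 peaks and none in its coding exon. The 32 RS peaks came to 8.95 per Mb, and the spaces were covered to 0.633%. None of the 19 DiffBind regions and none of the 4 PRO peaks touched a receptor gene. The beta-globin genes, which are expressed in red blood cell precursors, lie inside this cluster. HBB, HBD and HBG1 had no base in any list, whereas the long annotated bodies of HBG2 and HBE1, which run past neighbouring receptor genes, had 1.98% and 2.11% of bases in RS peaks and 0.634% and 0.675% in PRO peaks. The PRO peak in both bodies (chr11:5314601-5316201) lay 6.04 kb from OR51B4.

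At 1q23.1-q23.2 (chr1:158368312-159505797), 1 of 17 genes was overlapped. OR6N1 had 64.2% of its coding exon in an RS peak of 601 bp, without a DiffBind region. The 14 RS peaks came to 12.3 per Mb, near the 12.4 per Mb of the genome. The cluster 11q11-q12.1 (chr11:55110677-56757318) held 48 genes of families such as 4, 5 and 8, and 22 RS peaks. All of those peaks lay outside the receptor bodies, with 1.23% of the spaces covered, and the nearest gene was OR8K3 at 0.485 kb.

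The other 6 clusters had no overlapped gene either. At 11q24.1-q24.2, with 22 genes, there were 2 RS peaks, 2.41 per Mb, and 0.277% of the spaces were covered, with OR4D5 nearest at 0.522 kb. At 11p11.2 there were 10 RS peaks, 36.6 per Mb, the highest density of any of the clusters, and OR4C5 was nearest at 7.43 kb. The proximal of the pair of 11p11.12 clusters, with 3 genes, had 3 RS peaks and 2.55% of its spaces covered. The closest of these peaks to a gene lay 14.3 kb away, and OR4A5 lay 5.98 kb from an RS peak outside the span. The distal cluster of the pair, with 2 genes, had no RS peak, and OR4C13 lay 9.14 kb from the nearest. The single gene at 11q13.4, OR2AT4, lay 12.9 kb from an RS peak. At 1p36.33, with 3 genes of subfamily OR4F, 2 RS peaks lay in the spaces, the closest of them 51.7 kb from a gene. OR4F5 lay 36.0 kb from an RS peak outside the span. In this cluster, 92.7% of coding windows of 75 bases occur elsewhere in the genome and 150000 bases of the span are unknown. The part of either in the counts was not tested.

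By receptor class, RS peaks overlapped 2 of 55 class I genes, with 1.09% of their coding bases covered, and 15 of 179 class II genes, with 5.15% covered. Of these 15 genes, 8 were of OR2T, the subfamily with near-identical copies. No class I gene and 5 class II genes were overlapped by a DiffBind region. Of 14 families, 5 had an overlapped gene: 9 of 39 genes of family 2, 3 of 35 of family 5, 2 of 22 of family 51, 2 of 13 of family 6 and 1 of 5 of family 9. No RS base lay in the bodies of the 28 genes of family 4, the 27 of family 52, the 26 of family 10, the 23 of family 8, the 6 of family 56 or the 5 of family 14, nor in those of families 1, 11 and 13 with 3, 1 and 1 genes.

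Where a coding exon was overlapped at all, the RS peak covered much of it. The covered share had a median of 63.9% over the 14 genes and a range of 42.0% to 100%, and 11 of them had at least 50% of the coding exon in RS peaks. The peaks themselves were short. The 14 that touched a coding exon ranged from 401 to 2201 bp with a median of 701 bp, against 801 bp over the RS list, and the receptor coding exons have a median length of 942 bp.

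Most RS peaks of the clusters lay in the spaces, which also make up most of the length, 9722 of 11090 kb. Of 158 RS peaks, 14 touched a receptor coding exon, 7 another part of a receptor body, 6 a receptor pseudogene and 24 another coding gene. The other 107 (67.7%) touched none of these, and the space outside all of these parts makes up 6904 of the 11090 kb. DiffBind regions overlapped 52 of the 158 (32.9%), against 44.8% of the whole RS list, and PRO peaks overlapped 6 (3.80%), against 3.84%. At least 1 repeated window was present in 82 of them. The clusters held 10 PRO peaks, 6 of them over an RS peak, and 73 DiffBind regions, 49 of them (67.1%) over an RS peak, against 73.4% of the whole DiffBind list.

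Receptor pseudogenes, relatives of the genes that GENCODE does not hold to encode a working receptor, numbered 166 inside the clusters. RS peaks overlapped 6 of them (3.61%) and 3.17% of their bases, between the 4.19% of receptor coding exons and the 1.20% of the spaces. OR2M1P and OR2AS2P at 1q44 lay whole inside RS peaks. OR10Q2P at 11q12.1 was covered to 85.2%, OR52L2P at 11p15.4 to 80.9%, OR2AS1P at 1q44 to 63.0% and OR4C4P at 11p11.2 to 22.6%. A DiffBind region overlapped OR10Q2P alone, and no PRO peak overlapped a pseudogene of the clusters.

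Of the 86 other coding genes inside the clusters, RS peaks overlapped 13 (15.1%), DiffBind regions 12 and PRO peaks 5. They include 8 with the symbol of a receptor pseudogene that GENCODE annotates as coding, which the rule on symbols left out of the 234 and which had no base in any list. None of the 86 had 50% or more of its body in RS peaks. The following were chosen after their values were seen. The highest RS value was that of FAM111B at 11q12.1, which encodes a protease, with 11.9% in RS peaks and 16.8% in DiffBind regions. DiffBind regions covered more of ARFIP2 (23.6%), C11orf42 (20.9%) and DCHS1 (19.7%) at 11p15.4, which had no RS base. CAVIN3 at 11p15.4, a coat protein of caveolae, had 35.4% of its body in a PRO peak and no base in the RS or DiffBind lists.

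Genes of the olfactory signalling pathway, most of which lie elsewhere in the genome, were read in the same lists. Of 13 genes, RS peaks overlapped 3, PRO peaks 2 and DiffBind regions 4, and no RS base lay in a coding exon. Over all coding genes the shares by bodies were 21.0%, 3.97% and 18.3%, and so few genes cannot be told apart from these. ADCY3, the adenylyl cyclase that makes cyclic AMP once the receptor is bound, had 1.19% of its body in RS peaks. ANO2, a calcium-activated chloride channel, had 1.55% in RS peaks and 0.0968% in a PRO peak, and REEP1, named as a receptor expression-enhancing protein, had 3.06% in RS peaks. LDB1, a cofactor of LHX2 in the choice of receptor genes, had no RS base, 2.34% of its body in a PRO peak and 14.4% in a DiffBind region. In its coding exons, 25 bases lay in the PRO peak and 683 in the DiffBind region. No base of any list lay in GNAL, the olfactory G protein subunit, in the cyclic nucleotide channel genes CNGA2, CNGA4 and CNGB1, in OMP, RTP1 and RTP2, or in the transcription factor genes LHX2 and EMX2.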

How the data were processed

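IMR90 cells were profiled by H4K20me3 ChIP-seq with 2 antibodies in each of 2 groups, PRO and RS. The authors trimmed single-end reads with Trim Galore 0.3.0, aligned them to hg19 with Bowtie2 2.1.0, called domains with SICER 1.1 in 200 bp windows against total histone H4, and intersected the domains of both antibodies. DiffBind 1.8.3 gave the regions of differential enrichment. The deposited lists hold start and end positions in bases, with no score, count or direction, so depth and error could not be computed. The DiffBind list has fewer regions than the study describes, and values hold for the list used here.

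Positions are given 1-based, with the GRCh37 sequence and GENCODE release 44. Bodies, coding exons and spaces (from the first to the last gene of a cluster, outside receptor bodies) were intersected with each list in Python 3.11.15. Repeated windows of 75 bases were counted over the 24 main chromosomes, and coding sequences were compared with python-edlib 1.3.9.post1. Scripts were tested on simulated data. Named receptor genes were those with a PRO or DiffBind base, the most covered by RS peaks (up to 20) and the nearest to an RS peak in each cluster without an overlapped gene. Other named genes were neighbours with at least 50% of the body in RS peaks, the globins and the pathway list. The genes, lists and rules were chosen with earlier results of these data known.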

Additional observations from a re-analysis of the deposited data

How the results depend on the processing

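Of 67 values of 9 results under alternative settings, 48 stayed within 1.5 times the reported value and 19 did not. The 17 genes overlapped by RS peaks became 3 when 50% of the body had to be covered, 9 with peaks of at least 1000 bp, 8 without regions holding a repeated window, 9 without genes within 1 Mb of a chromosome end and 9 without OR2T, the last an alternative chosen after seeing the data. RS bases in receptor bodies went from 16368 to 9294 in coding exons alone, 9663 with peaks of at least 1000 bp, 6517 without repeated windows, and 9722 both without chromosome ends and without OR2T. With 2 kb added on either side, PRO peaks met 3 genes and 1162 bases, and DiffBind bases rose from 4088 to 7649. The 5 genes with DiffBind regions became 2 at 50% of the body. RS bases in the spaces went from 116190 to 68998 with peaks of at least 1000 bp and 56359 without repeated windows. PRO bases in the spaces went from 8810 to 3405 without repeated windows and 5607 with genes joined up to 250 kb apart, and DiffBind bases there went from 102785 to 49899 without repeated windows. Each of these settings leaves out regions, bases or genes or adds them by construction. Receptor coding exons were covered to a higher percent than the spaces under each choice of RS regions, with ratios from 3.04 to 3.57. These choices were all regions, those of at least 1000 bp, those longer than 1 base, neighbours merged and no repeated windows. With all regions, coding coverage fell from 4.19% to 2.22% without OR2T genes and to 2.34% without genes within 1 Mb of a chromosome end. No ratio was computed for these choices of genes, and the spaces of all clusters stood at 1.20%. No paired analysis was possible because the antibodies were merged into 1 list a group, and for the same reason no antibody could be left out for any of the 9 results. The depth of the libraries is not in the lists, so an absent peak is not evidence that the mark was absent.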
